A study of Rattus norvegicus with 232 samples.

Results

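The 10 genes described here carry out the synthesis, transport and breakdown of the monoamine transmitters dopamine, noradrenaline and serotonin: Th, Ddc, Dbh, Tph2, Slc6a2, Slc6a3, Slc6a4, Slc18a2, Maoa and Maob. They were chosen by name, for their roles, and all 10 were found among the 20859 genes of the RefSeq gene table. RNA from whole brain of untreated, alcohol- and drug-naive rats of the Hybrid Rat Diversity Panel was sequenced after depletion of ribosomal RNA. The table held 214 libraries from 197 animals of 74 inbred strains, and 69 strains with 2 or more animals (192 animals) entered the comparisons. Of these strains 54 had 3 animals and 15 had 2. They comprised 30 recombinant inbred (RI) strains of the HXB/BXH family, bred from SHR/OlaIpcv and BN-Lx/Cub, 16 RI strains of the FXLE/LEXF family, bred from F344/Stm and LE/Stm, and 23 classic inbred strains. Animals of an inbred strain are near-identical in genotype, so a strain is the group and its animals are the replicates. The design describes male rats, and 148 of the 232 samples carry a label of male. The study's methods describe young adult animals whose brains were divided along the midline before a single hemisphere was taken. No strain carried a transgene and no animal was treated.

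Monoamines are made mainly, but not only, by a few small groups of neurons in the midbrain and hindbrain whose axons reach most of the brain. Tyrosine hydroxylase (Th) and tryptophan hydroxylase 2 (Tph2) perform the rate-limiting steps towards the catecholamines and serotonin, Ddc decarboxylates the products of both, and Dbh turns dopamine into noradrenaline. The vesicular transporter Slc18a2 loads all of these amines into vesicles, the plasma membrane transporters Slc6a3, Slc6a2 and Slc6a4 take back dopamine, noradrenaline and serotonin, and the mitochondrial enzymes Maoa and Maob oxidise them. Th and Slc6a3 are textbook markers of dopamine neurons, Dbh and Slc6a2 of noradrenaline neurons and Tph2 and Slc6a4 of serotonin neurons, whereas Maoa and Maob are also expressed in other cells, including glia.

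The deposited annotation, whose genome build is not given in the sources used here, placed 3 of the genes on chromosome 1. These were Th from 198071500 to 198078832 on the reverse strand, Slc6a3 from 29707944 to 29750413 on the reverse strand and Slc18a2 from 258393004 to 258449188 on the forward strand. Dbh lay on chromosome 3 from 10488260 to 10505506, Tph2 on chromosome 7 from 50685694 to 50789458, Slc6a4 on chromosome 10 from 61824583 to 61859302, Ddc on chromosome 14 from 86368670 to 86469189 and Slc6a2 on chromosome 19 from 14010292 to 14055317. Maob, from 5907327 to 6010996 on the forward strand, and Maoa, from 6032172 to 6098308 on the reverse strand, were neighbours on the X chromosome.

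Promoters are shown for 6 of the genes, because the levels of several of them varied together across animals. Each window runs 5′ to 3′ on the strand of the gene from 250 bases before to 50 bases after the start of the transcript and was taken from RefSeq (GRCr8), a build whose coordinates are not those of the annotation above. Capitals mark matches to the cAMP response element (TGACGTCA), the TATA box (TATAAA) and the GC box (GGGCGG, or CCGCCC where it lies on the other strand).
Th, chr1:207508169-207508468, reverse strand: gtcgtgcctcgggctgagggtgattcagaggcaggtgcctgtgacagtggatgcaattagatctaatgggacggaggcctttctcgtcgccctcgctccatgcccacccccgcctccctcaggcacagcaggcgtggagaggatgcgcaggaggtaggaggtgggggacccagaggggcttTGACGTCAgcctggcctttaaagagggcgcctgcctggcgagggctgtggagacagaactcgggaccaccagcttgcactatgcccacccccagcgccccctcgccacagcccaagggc
Slc18a2, chr1:268399771-268400070, forward strand: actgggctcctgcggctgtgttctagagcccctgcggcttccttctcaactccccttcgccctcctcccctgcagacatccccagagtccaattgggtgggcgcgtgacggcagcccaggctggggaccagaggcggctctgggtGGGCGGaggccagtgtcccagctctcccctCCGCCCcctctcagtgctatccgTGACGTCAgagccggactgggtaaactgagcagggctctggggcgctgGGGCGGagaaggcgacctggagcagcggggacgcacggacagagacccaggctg
Slc6a3, chr1:31578913-31579212, reverse strand: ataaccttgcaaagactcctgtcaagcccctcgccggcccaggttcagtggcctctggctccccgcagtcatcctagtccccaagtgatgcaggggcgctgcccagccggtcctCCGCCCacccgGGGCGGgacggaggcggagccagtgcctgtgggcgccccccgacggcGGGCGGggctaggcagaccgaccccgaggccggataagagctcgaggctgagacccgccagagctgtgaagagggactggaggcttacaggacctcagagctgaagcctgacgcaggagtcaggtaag
Tph2, chr7:52675590-52675889, reverse strand: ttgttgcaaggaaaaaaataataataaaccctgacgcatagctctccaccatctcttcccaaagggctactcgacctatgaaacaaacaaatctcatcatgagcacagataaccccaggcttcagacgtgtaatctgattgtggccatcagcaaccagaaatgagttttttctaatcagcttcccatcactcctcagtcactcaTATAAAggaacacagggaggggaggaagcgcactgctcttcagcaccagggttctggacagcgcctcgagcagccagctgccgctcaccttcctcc
Maoa, chrX:8681323-8681622, reverse strand: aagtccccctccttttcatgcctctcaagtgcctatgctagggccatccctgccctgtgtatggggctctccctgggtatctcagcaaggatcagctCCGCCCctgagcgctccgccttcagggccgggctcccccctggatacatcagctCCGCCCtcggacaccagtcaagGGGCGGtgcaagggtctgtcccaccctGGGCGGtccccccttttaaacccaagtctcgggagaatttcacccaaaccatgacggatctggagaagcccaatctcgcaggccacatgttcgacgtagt
Maob, chrX:8490155-8490454, forward strand: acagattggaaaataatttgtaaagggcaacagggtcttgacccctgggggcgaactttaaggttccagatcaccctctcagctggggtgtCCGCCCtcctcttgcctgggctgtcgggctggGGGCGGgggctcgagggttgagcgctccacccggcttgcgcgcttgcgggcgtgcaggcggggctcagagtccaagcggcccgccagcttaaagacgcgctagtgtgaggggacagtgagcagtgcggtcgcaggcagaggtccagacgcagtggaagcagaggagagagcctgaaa
The letters TGACGTCA were found 69 bases before the start of Th and 52 bases before the start of Slc18a2, and they occur in 1.83% of the 33469 promoters of the table. TATAAA was found 46 bases before the start of Tph2 and occurs in 14.2% of all promoters. GGGCGG was found 3 times each in the windows of Slc6a3 and Slc18a2, 4 times in Maoa and 2 times in Maob, and occurs in 33.1% of all promoters. The table matched 8 of the 10 genes, and Slc6a2 and Slc6a4 were not searched. A search for the NBRE (AAAGGTCA), the monomer site of NR4A receptors, which is in 1.43% of all promoters, found it in 1 window of Ddc among the 8, on the reverse strand, where it overlaps a TATAAA match. None of the 4 motifs was in the Dbh window. A match of letters is a description and not a binding site.

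Levels are given as in the deposited table. How its values were transformed is not given in the sources used here, and they were read as log2 from their range and median. Fold differences rest on that reading, in which a difference of 1 is a doubling. The medians of the libraries ran from 8.18 to 8.42. The table holds no counts, so sequencing depth is not known here and counting error cannot be given. It also holds no values per transcript length, so levels are compared between animals and strains and never between genes. Libraries that share a strain and a replicate number were averaged to 1 animal. The tissue labels were checked with markers of neurons, astrocytes and oligodendrocytes, whose lists of 4, 6 and 4 genes had strain medians of 13.8, 13.5 and 14.8. A list of 10 liver genes had a median of 6.70 over the animals, but 16.4 in the only animal of LE/Stm, which does not enter the comparisons, and 12.2 and 12.02 in 1 animal each of BXH6/Cub and HXB10/Ipcv, which do. Without these animals, an alternative chosen after seeing the data, the counts of calls given below were the same (4 genes, 34 and 36 pairs). The 3 animals of LEW/Crl had 3 Y-linked genes between 9.03 and 9.64, below the medians of 10.3 to 10.6 of all other animals, whose lowest values were 8.79 to 9.32. In bulk tissue, fewer cells of a type and less RNA per cell cannot be told apart.

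The first question was how much of the variation of each gene lies between strains. The share of the total sum of squares that lies between strains, the broad-sense R2, was computed and tested with the moderated F-test of limma over all genes at a false discovery rate (FDR) of 5%. With 2 or 3 animals per strain, strain means also carry the spread between animals. R2 is therefore raised even where strains do not differ, and it is not the share due to strain alone. Of the 10 genes, 4 were called, where 36.8% of all genes were called. They were Ddc (R2 = 0.629, adjusted p = 2.24e-07), Slc6a2 (R2 = 0.525, adjusted p = 0.00137), Dbh (R2 = 0.519, adjusted p = 0.00198) and Slc18a2 (R2 = 0.483, adjusted p = 0.0137). The R2 of Ddc ranked 1459 of 20859, higher than 93.0% of all genes, and the median R2 of all genes was 0.434. The other 6 genes did not pass, with limma adjusted p-values of 0.0557 for Tph2, 0.0806 for Maoa, 0.0963 for Slc6a4, 0.137 for Maob, 0.218 for Th and 0.347 for Slc6a3. The share of the 10 genes called was thus close to that of all genes. Ddc was called in 18 of 19 other ways of processing the data, Dbh and Slc6a2 in 15 of 18 and Slc18a2 in 13 of 19, while Tph2 was called in 3 of 18, Th and Maoa in 2 each, Maob in 1 and Slc6a3 and Slc6a4 in 0. Without the animals numbered 3, Ddc was the single gene called, where 29.3% of all genes were called. The main test had no term for batch. The HXB/BXH and FXLE/LEXF strains shared no batch, so strain cannot be fully told apart from batch and source.

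**Figure D1:**
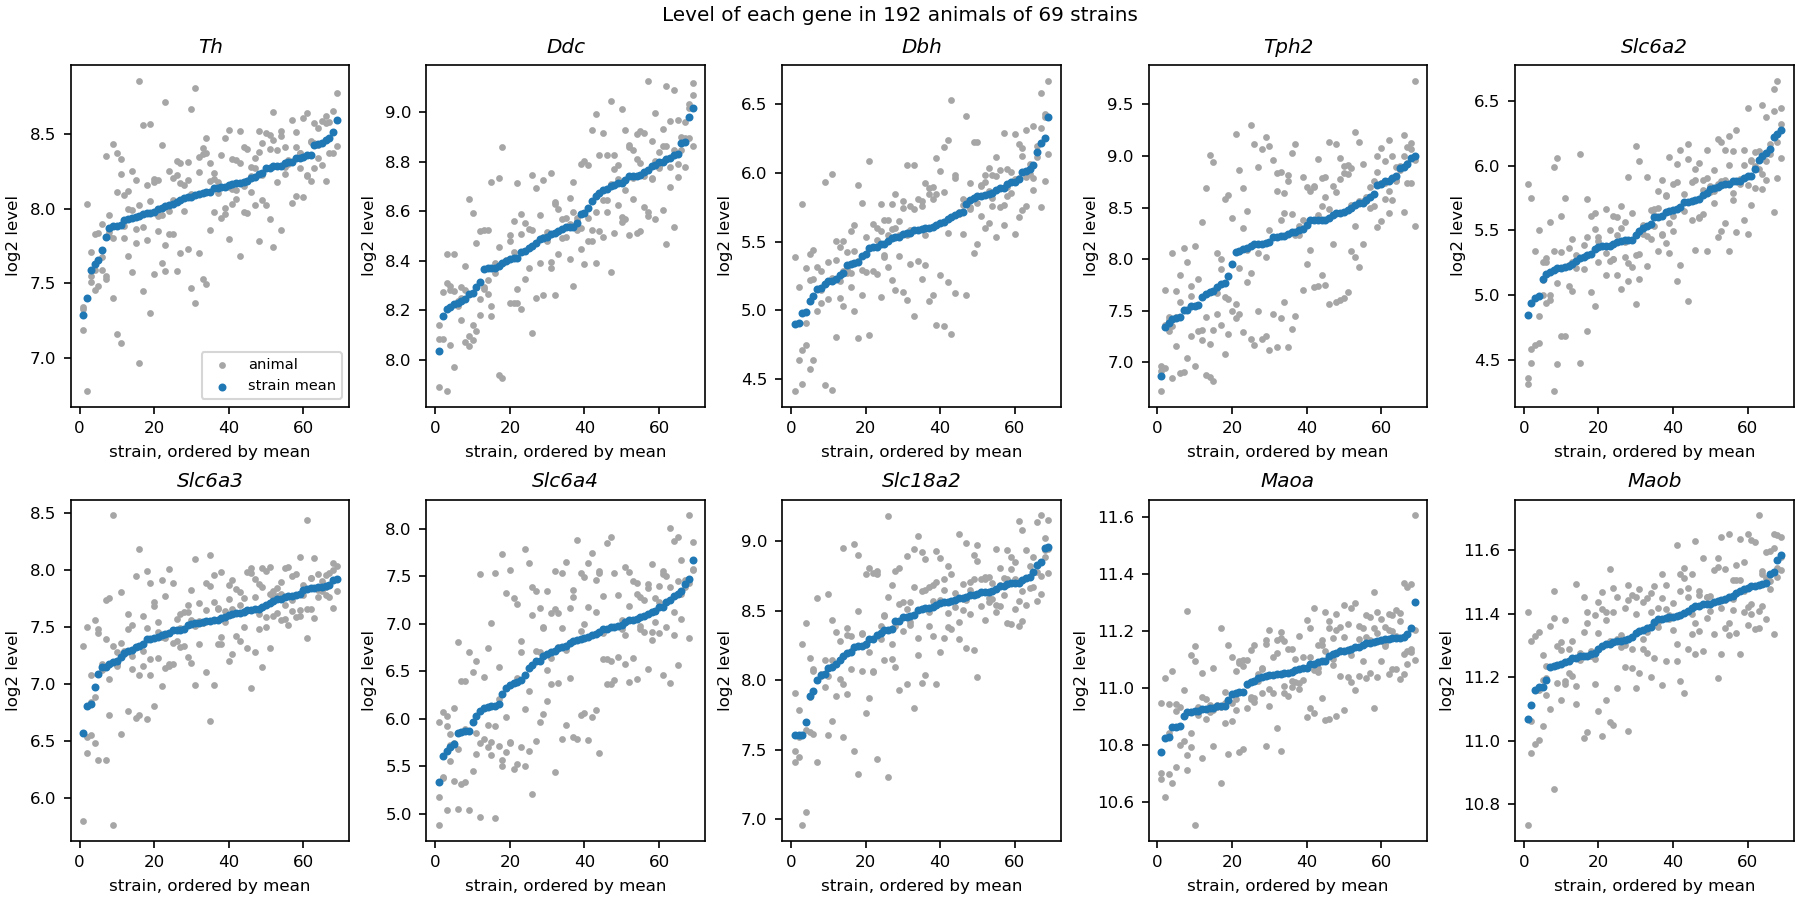
Level of each of the 10 genes (log2, vertical axis, a scale of its own per gene) in 69 strains ordered by their mean (horizontal axis); grey points are the 192 animals and blue points the strain means. The strain means rise in small steps, and the grey points spread widely around the blue points for Tph2 and Slc6a4.

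The lowest and the highest strains described next were picked by their means out of 69, so their distance is a description with no test. The animals of the lowest and the highest strain did not overlap for any of the 10 genes, nor for 98.7% of all genes. Among the synthesis genes, Th ran from 6.78 over a median of 8.18 to 8.86 in the 192 animals. Its lowest strain was SR/JrHsd, at 7.19, 7.33 and 7.34, and its highest was COP/CrCrl, at 8.42 and 8.77. The means of these strains were 2.48-fold apart, and the animals of BDIX/NemOdaMcwi, 2nd lowest, lay far apart, at 6.78 and 8.03. Th had an SD within strains of 0.368, larger than that of 98.3% of all genes.

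Ddc ran from 7.88 over 8.56 to 9.13. SR/JrHsd was again the lowest strain, at 7.89, 8.08 and 8.14, and PVG/Seac was the highest, at 8.86, 9.07 and 9.11. Their means were 1.97-fold apart. The second highest strain, MWF/Hsd, had 8.89, 9.02 and 9.03, and WKY/NCrl, 3rd lowest, had 7.88, 8.31 and 8.43. Compared with the other genes of neurons, Ddc combined a narrow range of strain means with a small SD within strains (0.210).

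Dbh ran from 4.41 over 5.63 to 6.67. Its lowest strain by mean was BDIX/NemOdaMcwi, at 4.41 and 5.39, and its highest was HXB29/Ipcv, at 6.13, 6.41 and 6.67, with means 2.83-fold apart. HXB22/Ipcv, 3rd lowest, had 4.46, 4.71 and 5.77 and reached above the lowest animal of BXH5/Cub, 3rd highest, at 5.75.

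Tph2 ran from 6.72 over 8.32 to 9.73. BXH13/Cub was lowest, at 6.72, 6.92 and 6.97, and BXH2/Cub was highest, at 8.32, 8.96 and 9.73, with means 4.39-fold apart. The largest step in the order of any of the 10 genes was here, 0.469 between BXH13/Cub and HXB27/Ipcv, and it was still smaller than the SD of Tph2 within strains (0.653).

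Among the plasma membrane transporters, the noradrenaline transporter Slc6a2 ran from 4.26 over 5.60 to 6.66. HXB22/Ipcv was lowest, at 4.32, 4.36 and 5.86, and HXB29/Ipcv was highest, at 6.05, 6.32 and 6.44. The highest animal of HXB22/Ipcv stood far above the other animals of that strain, and the mean of HXB29/Ipcv was 2.69-fold higher. The dopamine transporter Slc6a3 ran from 5.76 over 7.60 to 8.49, with its lowest strain BDIX/NemOdaMcwi at 5.80 and 7.34 and its highest, FXLE15/Stm, at 7.82 and 8.04. Their means were 2.56-fold apart.

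The serotonin transporter Slc6a4 had the widest range of the 10 genes, from 4.88 over 6.73 to 8.15. BXH13/Cub was lowest, at 4.88, 5.17 and 5.96, and HXB29/Ipcv was highest, at 7.57, 7.57 and 7.86. Their means were 5.04-fold apart. The SD was 0.750 within strains against 0.525 between strain means, and it was likewise the larger within strains for each of the 10 genes except Ddc. Means of 2 or 3 animals spread less than single animals do. PVG/Seac, second highest, had 6.86, 7.43 and 8.15, and the SD within strains was larger than that of 99.8% of all genes.

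The vesicular transporter Slc18a2 ran from 6.96 over 8.51 to 9.19. SR/JrHsd was lowest, at 7.41, 7.49 and 7.91, BXH13/Cub next, at 7.45, 7.59 and 7.78, and MWF/Hsd highest, at 8.77, 8.95 and 9.15. The mean of MWF/Hsd was 2.55-fold above that of SR/JrHsd. BDIX/NemOdaMcwi, 3rd lowest, had animals at 6.96 and 8.26.

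The breakdown genes had the narrowest ranges. Maoa ran from 10.5 over 11.1 to 11.6, with HXB1/Ipcv lowest at 10.7, 10.7 and 10.9 and BN-Lx/Cub highest at 11.1, 11.2 and 11.6. Maob ran from 10.7 over 11.4 to 11.7, with LEXF5/Stm lowest at 10.7 and 11.4 and HXB23/Ipcv highest at 11.5, 11.6 and 11.6. The lowest and the highest strain differed 1.44-fold for Maoa and 1.43-fold for Maob, less than for any other of the 10 genes.

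In the order of the 69 strains of each gene, 0 of the 68 gaps between neighbours was larger than the SD of that gene within strains. With so many strains in an order small gaps come with the ordering, and neighbours were not tested against each other. The SD within strains was larger than that of 98% of all genes for 7 of the 10 genes (Th, Dbh, Tph2, Slc6a2, Slc6a3, Slc6a4 and Slc18a2), while Ddc stood at the 78.9th percentile, Maob at the 47.6th and Maoa at the 44.3rd.

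Repeat libraries of single animals show how much of that spread can come from the libraries. SHR/OlaIpcv animal 1 had 12 libraries in 12 sequencing batches and animal 4 had 6. Slc6a4 ran from 6.40 over 6.93 to 7.37 in the libraries of animal 1, an SD of 0.276, and had an SD of 0.128 in those of animal 4, against 0.750 between animals within strains. Tph2 had SDs of 0.257 and 0.201 against 0.653, and Slc18a2 had 0.138 and 0.144 against 0.397. For these 3 genes animals of a strain thus differed 2.54 to 5.85 times as much as libraries of 1 animal. In the dopamine pair, Slc6a3 ran from 6.16 to 7.72 in the libraries of animal 1, and its SDs were 0.426 and 0.255 against 0.434, while Th had 0.293 and 0.196 against 0.368. In the noradrenaline pair, Dbh had 0.289 and 0.326 against 0.396 and Slc6a2 had 0.314 and 0.319 against 0.395, and Ddc had 0.124 and 0.114 against 0.210. For Maoa the libraries of animal 1 (0.155) and animal 4 (0.130) spread about as widely as animals of a strain (0.153), and Maob had 0.140 and 0.131 against 0.158. Of all genes, 44.1% had an SD within strains above that between the libraries of animal 1 and 70.5% above that of animal 4.

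**Figure D2:**
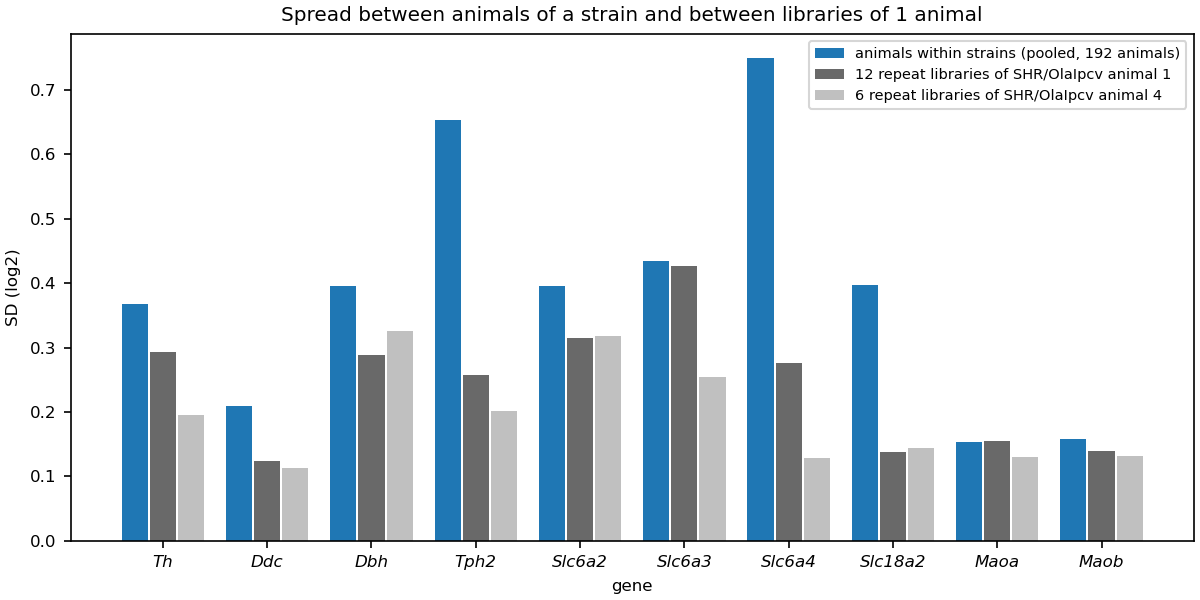
SD on the log2 scale (bars, from 0) of each gene between animals within strains, pooled over 192 animals of 69 strains, beside the SD between 12 repeat libraries of SHR/OlaIpcv animal 1 and between 6 repeat libraries of animal 4. The bars of animals stand far above those of libraries for Tph2, Slc6a4 and Slc18a2 and level with them for Maoa and Maob.

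The panels were then tested apart, since their strains differ in origin. In the 30 HXB/BXH strains limma called 3 of the 10 genes, where 19.1% of all genes were called: Ddc (R2 = 0.578), Dbh (R2 = 0.519) and Slc6a2 (R2 = 0.518). In the 23 classic inbred strains it called Ddc (R2 = 0.735), Th (R2 = 0.565) and Slc18a2 (R2 = 0.546), where 18.6% of all genes were called. In the 16 FXLE/LEXF strains it called 0 of the 10, where 5.00% of all genes were called, and 1 (Ddc) had an unadjusted p under 0.05, as had 22.8% of all genes. Th had an R2 of 0.226 in the HXB/BXH strains, where its means ran from 7.59 to 8.36, against 7.29 to 8.60 in the classic inbred strains. Whether the R2 differs between panels was not tested.

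A few strains were extreme for several genes. SR/JrHsd was among the 3 lowest strains for 5 genes (Th, Ddc, Tph2, Slc6a3 and Slc18a2) and 4th lowest for Slc6a4, but it was 29th of 69 for Dbh and 14th for Slc6a2. Its Dbh values of 5.40, 5.55 and 5.65 lay around the strain median of 5.59. In the same strain the list of midbrain dopamine neuron markers without Th and Slc6a3 was the lowest of 69, that of raphe markers 2nd lowest and that of olfactory bulb markers the lowest, while neuron markers were 61st. The midbrain dopamine list shares Lmx1b with the raphe list and holds Aldh1a1, which was itself lowest in SR/JrHsd. The raphe list shares Tph1 with the list of pineal markers, for which SR/JrHsd was also 2nd lowest. COP/CrCrl, the highest strain for Th, was 69th of 69 for olfactory bulb markers and 31st for midbrain dopamine markers. The part of these lists in the levels of the genes was not tested.

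BDIX/NemOdaMcwi was among the 3 lowest strains for Th, Dbh, Slc6a3 and Slc18a2. Its animals were far apart, and animal 2 was the lower for all 4. Its list of 10 Hox genes, markers of hindbrain and spinal cord, had the lowest strain mean of all strains, and it stood 2nd lowest for locus coeruleus markers and 7th lowest for midbrain dopamine markers. HXB24/Ipcv was among the 3 lowest for Th, Slc6a3 and Slc6a4 and within the lowest 6 for all 8 genes other than Maoa and Maob. It stood lowest for the raphe list, 3rd lowest for midbrain dopamine markers and 5th lowest for locus coeruleus markers. BXH13/Cub was lowest for Tph2 and Slc6a4 and 2nd lowest for Slc18a2, and it had the lowest mean of the 4 oligodendrocyte markers (14.5, against a strain median of 14.8), while it stood 4th lowest for locus coeruleus markers, 5th lowest for midbrain dopamine markers and 42nd of 69 for the raphe list. HXB29/Ipcv was highest for Dbh, Slc6a2 and Slc6a4, and it stood 67th of 69 for the hindbrain list, 66th for oligodendrocyte markers, 69th for locus coeruleus markers and 39th for the raphe list. MWF/Hsd was among the 3 highest for Ddc, Tph2, Slc18a2 and Maoa and was 68th for the raphe list. For the pineal list, which shares Tph1 with the raphe list, HXB24/Ipcv was 4th lowest. BXH13/Cub, HXB29/Ipcv and MWF/Hsd were 53rd, 34th and 55th of 69 for it. How far these marker levels account for the levels of the genes was not tested.

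The next question was which of the genes vary together. Pearson's r was computed for all 45 pairs, once over the means of 69 strains and once over the deviations of 192 animals from the mean of their strain, with two-sided permutation tests of 100000 resamples and adjustment over the 45 pairs. Over strain means 34 of the 45 pairs passed, 1 of them negative, and within strains 36 passed, all positive. The share of pairs that would pass among all genes was not computed, so these counts have no background beside them. The permutation over strain means treats the strains as independent of each other. Strains of an RI family are related, and the HXB/BXH and FXLE/LEXF strains shared no batch. The p-values over strain means take no account of either and may be too small. By Spearman's rho 34 pairs passed in each.

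**Figure D3:**
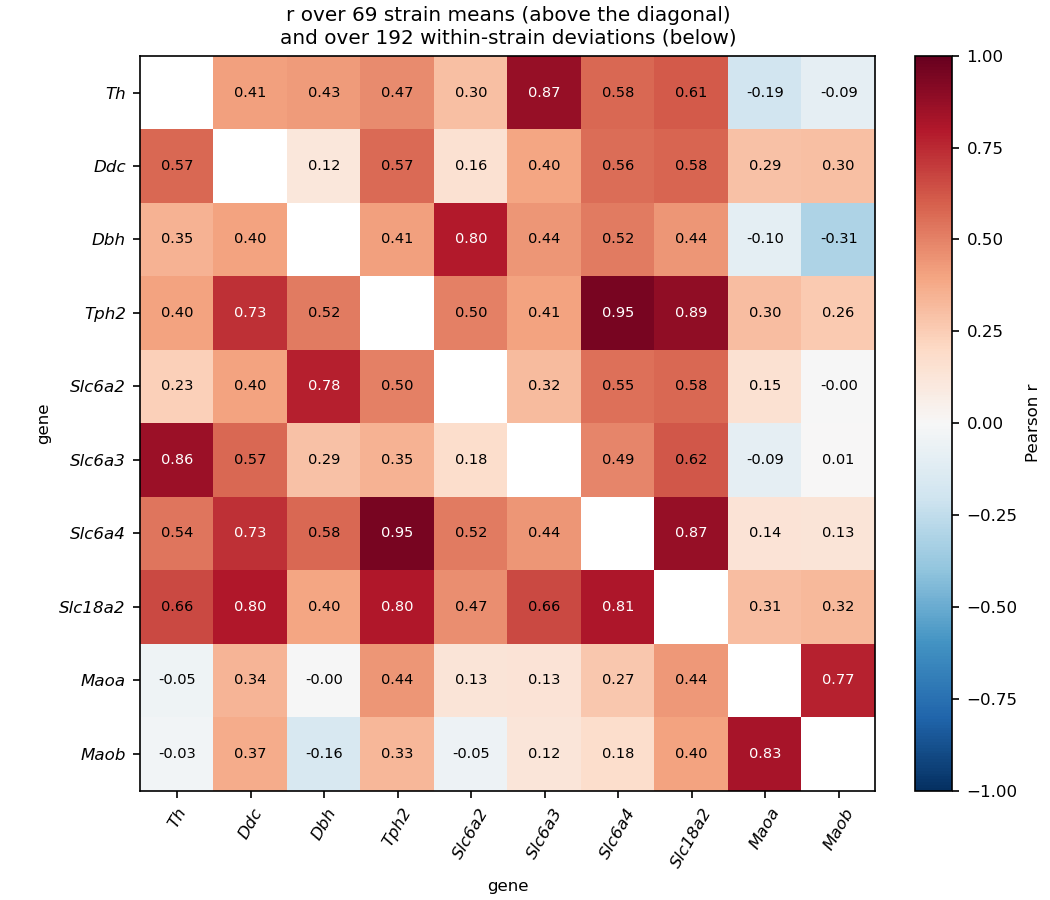
Pearson's r (colour and number) for each pair of the 10 genes over the means of 69 strains (above the diagonal) and over the deviations of 192 animals from their strain mean (below). Tph2 and Slc6a4 reach 0.95 on both sides, Th and Slc6a3 0.87 and 0.86, and Maoa and Maob 0.77 and 0.83.

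The serotonin pair was the closest. Tph2 and Slc6a4 had r = 0.95 over strain means (rho = 0.94) and r = 0.95 within strains (rho = 0.95), and each was the nearest of 20858 other genes to its partner in both. The dopamine pair Th and Slc6a3 had r = 0.87 (rho = 0.84) and 0.86 (rho = 0.81), and was likewise nearest in both directions. The noradrenaline pair Dbh and Slc6a2 had r = 0.80 (rho = 0.79) over strain means and 0.78 (rho = 0.74) within strains, where each was the nearest gene of its partner. Thus each transmitter's synthetic enzyme had its own reuptake transporter as its nearest gene within strains. For these 3 pairs the permutation p of r and of rho was 1e-05, the smallest that the resamples can give, and the adjusted p of r was 2.6e-05 over strain means and 2.1e-05 within strains. Without the 2 strains or animals farthest from the median, r stayed at 0.94 and 0.95 for the serotonin pair, 0.83 and 0.84 for the dopamine pair and 0.78 and 0.78 for the noradrenaline pair.

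**Figure D4:**
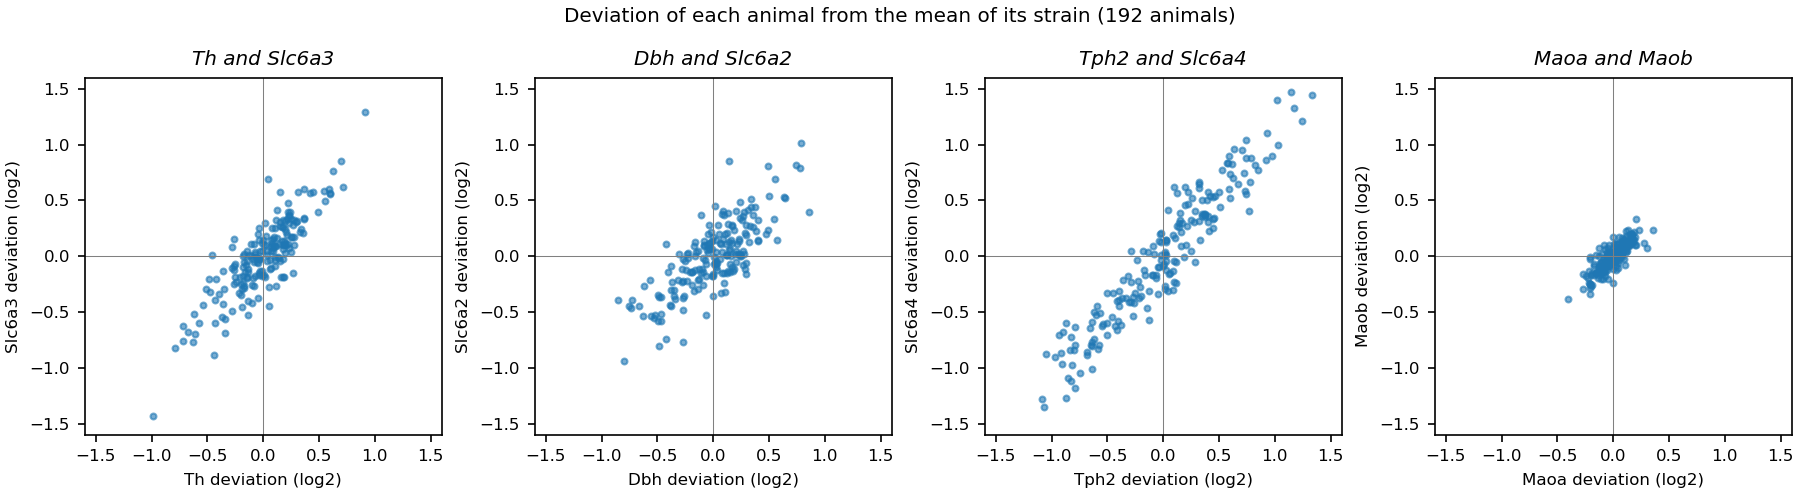
Deviation of each of 192 animals from the mean of its strain (log2) for the enzyme and transporter of each transmitter and for Maoa and Maob, all 4 panels on the same axes. The points of Tph2 and Slc6a4 reach beyond 1 in both directions along a narrow line, and those of Maoa and Maob stay close to the centre.

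The shared genes followed more than one transmitter. Slc18a2 had r = 0.89 over strain means and 0.80 within strains with Tph2, 0.87 and 0.81 with Slc6a4, and 0.61 and 0.66 with Th. Ddc had r = 0.58 over strain means and 0.80 within strains with Slc18a2, which was its nearest gene within strains. Ddc and Dbh had r = 0.12 over strain means (adjusted p = 0.380 by permutation) and 0.40 within strains (adjusted p = 3.6e-05). Across transmitters r was lower than within the pairs, for example 0.30 over strain means and 0.23 within strains for Th and Slc6a2. Over strain means of the v5 table this pair had r = -0.16 (adjusted p = 0.392 by permutation).

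The breakdown genes were closest, among the 10, to each other. Maoa and Maob had r = 0.77 over strain means (rho = 0.74) and 0.83 within strains (rho = 0.83), but Maob ranked only 550th and 369th among the genes nearest to Maoa, and Maoa ranked 10th and 12th for Maob. Of their 16 pairs with the other 8 genes, 8 passed within strains, all positive. Within strains Maoa had r = 0.44 with Tph2, 0.44 with Slc18a2, 0.34 with Ddc and 0.27 with Slc6a4 (rho = 0.42, 0.46, 0.34 and 0.27), and Maob had 0.33, 0.40, 0.37 and 0.18 with the same genes (rho = 0.32, 0.42, 0.36 and 0.18), with adjusted p between 2.1e-05 and 0.0437 by permutation. Over strain means 7 of the 16 passed, and r with Ddc, Tph2 and Slc18a2 lay between 0.26 and 0.32. With batch as a covariate all 16 passed over strain means, with r between 0.29 and 0.77. SHR/OlaIpcv was the only strain whose libraries linked the batches of the HXB/BXH strains with those of the FXLE/LEXF strains. Means adjusted for batch are thus placed against each other across these batches by that strain alone. What this did to r was not tested. With Th and Dbh neither had an r above 0 in either comparison, but with batch as a covariate r over strain means lay between 0.29 and 0.58 for these 4 pairs. The single negative pair that passed was Dbh and Maob over strain means (r = -0.31, adjusted p = 0.0162 by permutation over 69 strains), and within strains it had r = -0.16 (adjusted p = 0.0760). Over strain means it turned positive with batch as a covariate (r = 0.29, adjusted p = 0.0174 by permutation), and it did not pass in the v5 table (r = -0.15, adjusted p = 0.396) or without replicate 2 (r = -0.19, adjusted p = 0.178).

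The relations were also computed among the animals of single batches. Their deviations were taken from strain means over all batches, so they can still carry batch differences, and the batches are not independent of each other. In 15 sequencing batches with 6 or more animals, r of the within-strain deviations was positive in 15 of 15 for Th and Slc6a3 (median 0.87), Dbh and Slc6a2 (median 0.78), Tph2 and Slc6a4 (median 0.96), Tph2 and Slc18a2 (median 0.84) and Ddc and Slc18a2 (median 0.84). The lowest batch gave 0.81 for the serotonin pair, 0.38 for the dopamine pair and 0.36 for the noradrenaline pair. Across these transmitters the median ran from 0.12 for Slc6a2 and Slc6a3 to 0.64 for Dbh and Slc6a4, with 0.27 for Th and Slc6a2.

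Libraries of 1 animal moved together for some of the pairs as well. Over the 12 libraries of SHR/OlaIpcv animal 1 and the 6 of animal 4, given as a description, r was 0.91 and 0.94 for Maoa and Maob, 0.85 and 0.88 for Th and Slc6a3 and 0.61 and 0.61 for Tph2 and Slc6a4. Dbh and Slc6a2 had 0.52 and 0.04. Where a pair also moved together between libraries, a part of its correlation within strains cannot be told apart from variation of the libraries.

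Markers of brain regions and cell types moved with the genes. The list of 10 midbrain dopamine neuron markers had r = 0.83 with Slc18a2, 0.78 with Th, 0.74 with Ddc and 0.74 with Slc6a3 within strains, each with a permutation p of 1e-05 and an adjusted p of 4e-05 over 120 relations. Spearman's rho for these was 0.78, 0.74, 0.71 and 0.67, and without the 2 animals farthest from the median r was 0.81, 0.77, 0.72 and 0.72. The same list had r = 0.72 with Slc6a4, 0.65 with Tph2, 0.48 with Dbh (adjusted p of 4e-05 by permutation for each) and 0.42 with Slc6a2 (adjusted p = 0.000218), with rho of 0.69, 0.62, 0.43 and 0.36. It also passed with Maoa (r = 0.22, adjusted p = 0.0435 by permutation) but not with Maob (r = 0.19, adjusted p = 0.0826). The midbrain dopamine list shares Lmx1b with the raphe list and holds the breakdown gene Aldh1a1. Within strains Aldh1a1 had r = 0.76 with Maoa, 0.77 with Maob, 0.63 with Slc18a2 and 0.61 with Tph2, against 0.39 with Slc6a3 and 0.28 with Th. The part of these genes in the r of the list was not tested. Of 8 raphe markers 7 were measured, and this list had r = 0.18 with Tph2 (rho = 0.23, adjusted p = 0.110 by permutation) and 0.24 with Slc6a4 (rho = 0.29, adjusted p = 0.0252). Its highest r was 0.41 with Ddc (rho = 0.41, adjusted p = 7.5e-05 by permutation). It also had 0.26 with Th, 0.23 with Slc6a3 and 0.22 with Slc18a2, all past 5%. The raphe list holds Tph1, which it shares with the pineal list. Tph1 had an SD within strains of 1.499, larger than that of any of the 10 genes. Within strains Tph1 had r = -0.03 with Tph2, -0.01 with Slc6a4 and 0.19 with Ddc. It had -0.02 with Th, 0.02 with Slc6a3 and -0.03 with Slc18a2. The part of Tph1 in the r of the raphe list was not tested. The list of locus coeruleus markers had r between 0.38 (Slc6a3) and 0.62 (Dbh) with all 8 genes other than Maoa and Maob (rho between 0.39 and 0.59), each with an adjusted p of 4e-05 by permutation. The hindbrain list had r = 0.58 with Dbh, 0.54 with Slc6a2, 0.51 with Tph2 and 0.49 with Slc6a4 at the same p (rho = 0.53, 0.53, 0.48 and 0.46), but 0.18 with Th (adjusted p = 0.134 by permutation) and 0.14 with Slc6a3 (adjusted p = 0.215). It also had r = 0.42 with Ddc and 0.41 with Slc18a2 (rho = 0.39 and 0.40, adjusted p of 7.5e-05 and 4e-05 by permutation). Whether r with a list differs between genes was not tested. Oligodendrocyte markers had r between 0.48 and 0.61 with all 8 genes other than Maoa and Maob, and 0.25 with Maoa. Astrocyte markers passed with 7 of these 8 genes (r between 0.21 and 0.31) and choroid plexus markers with 6 of them (r between 0.21 and 0.27) and with Maob (0.21). Neuron markers had r between -0.17 and 0.08 with the same 8 genes and -0.24 with Maoa, which passed. Of the other lists, pineal markers passed with Ddc alone (r = 0.25), olfactory bulb markers with Maob alone (r = -0.22) and liver markers with 0 of the 10 genes. The share of all genes that would pass with each list was not computed, for these lists or for the Y-linked list below. The counts of genes that passed therefore have no background beside them and do not set these genes apart from others.

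When the hindbrain and oligodendrocyte lists were taken into the fit, an alternative chosen after seeing the data, 29 of the 45 pairs within strains passed, 3 of them negative. The 3 enzyme and transporter pairs then had r = 0.92 (Tph2 and Slc6a4), 0.79 (Th and Slc6a3) and 0.66 (Dbh and Slc6a2). A list of 4 Y-linked genes had r = 0.72 with Maoa and 0.58 with Maob within strains (rho = 0.78 and 0.66, permutation p of 1e-05, adjusted p of 4e-05), against -0.13 to 0.29 with the other 8 genes. Of these 8, Slc18a2 (r = 0.29, rho = 0.28, permutation adjusted p = 0.00173) and Tph2 (r = 0.25, rho = 0.24, permutation adjusted p = 0.0132) also passed 5%. BN-Lx/Cub, highest for Maoa, was also the highest strain for this list, and HXB1/Ipcv, lowest for Maoa, was 2nd lowest. Why these levels moved together was not tested.

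Among all genes with a symbol and a mean in the upper part of the table (above its median), the nearest to each of the 10 were named. Over strain means Th was nearest to Zfhx3 (r = 0.76), Nfatc2 (0.67) and Kank4 (0.67), and within strains to Baiap3 (0.73), Gpx3 (0.69) and Agt (0.66). Slc6a3 was nearest to Zfhx3 (0.69), Slc18a2 (0.62) and Kank4 (0.58) over strain means, and to Slc18a2 (0.66), Baiap3 (0.58) and Ddc (0.57) within strains. Zfhx3 and Kank4 thus stood beside both dopamine genes over strains, and Baiap3 stood beside both within strains.

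Dbh was nearest to Nefh, a neurofilament subunit, in both comparisons (0.80 and 0.75), followed by Ahnak2 (0.80) over strain means and by Klk6 (0.69) and Syt2 (0.69) within strains. Slc6a2 was nearest to the glycine receptor subunit Glra1 (0.73), the glycine transporter Slc6a5 (0.70) and Arhgap36 (0.66) over strain means, and to Lgi2 (0.65), Slc6a5 (0.64) and Syt2 (0.63) within strains. Slc6a5 and Glra1 are known for glycinergic signalling in brainstem and spinal cord.

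Tph2, Slc6a4 and Slc18a2 shared Arhgap36 (r = 0.75, 0.74 and 0.82) and Clcn5 (0.74, 0.67 and 0.81) among their nearest genes over strain means. Within strains their nearest gene of sufficient level was Slc18a2 for Tph2 (0.80) and Slc6a4 (0.81) and Ddc for Slc18a2 (0.80), followed by Ddc and Fgf1 (0.68) for Tph2, Ddc and Endod1 (0.64) for Slc6a4, and Gpr165 (0.74) and Slc17a6 (0.73) for Slc18a2. Ddc itself was nearest to Minar1 (0.59), Slc18a2 (0.58) and Slc17a6 (0.51) over strain means and to Slc18a2 (0.80), Fgf1 (0.76) and Vat1l (0.70) within strains.

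Maoa had the highest r of any of the 10 genes with genes outside the group: Sucla2 (0.92), Npm1 (0.92) and Tax1bp1 (0.91) over strain means and Tax1bp1 (0.93), Vps41 (0.93) and Rnf13 (0.93) within strains. Over the 12 repeat libraries of SHR/OlaIpcv animal 1 these 5 genes had r between 0.91 and 0.97 with Maoa. Maob was nearest to Ptgr2 (0.80), Ctso (0.80) and Snx5 (0.80) over strain means and to Suclg2 (0.88), Vcam1 (0.86) and Nfe2l2 (0.85) within strains, and these 6 genes had r between 0.62 and 0.93 with it in the same libraries. The 3 genes nearest to Th within strains likewise had r between 0.81 and 0.95 with it there, and those nearest to the other 7 genes within strains had r between -0.25 and 0.81.

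The progenitors of the HXB/BXH family, BN-Lx/Cub and the hypertensive strain SHR/OlaIpcv, were compared next by limma contrasts fitted over all animals. Of the 10 genes 0 passed 5% FDR, where 4.51% of all genes did, and 5 had an unadjusted p under 0.05, where 19.2% of all genes had. Ddc was at 8.63, 8.73 and 8.79 in BN-Lx/Cub and at 8.22 and 8.24 in SHR/OlaIpcv, so the strains did not overlap and BN-Lx/Cub was higher by 0.49 ± 0.19 (SE, limma adjusted p = 0.123). Maoa was higher in BN-Lx/Cub by 0.38 ± 0.14 (SE, limma adjusted p = 0.0948) and Maob by 0.32 ± 0.14 (SE, limma adjusted p = 0.201). The noradrenaline genes went the other way: Dbh was at 4.57, 5.22 and 5.41 in BN-Lx/Cub and at 5.86 and 6.01 in SHR/OlaIpcv, a difference of -0.86 ± 0.36 (SE, limma adjusted p = 0.148). Slc6a2 was at 4.72, 5.45 and 5.74 against 6.09 and 6.16, a difference of -0.82 ± 0.36 (SE, limma adjusted p = 0.173). These 5 genes and Slc6a4 did not overlap between the strains, nor did 38.9% of all genes. The SHR/OlaIpcv values are means of 12 and 6 libraries, and such means spread less than single libraries. Single libraries of these animals reached the range of BN-Lx/Cub for Dbh (5.37), Slc6a2 (5.49), Slc6a4 (6.40) and Maoa (11.2), but not for Ddc or Maob. In the v5 table, with 3 animals in each strain, the differences of Dbh and Slc6a2 were -0.18 and -0.06. Without BN-Lx/Cub replicate 2, Maoa passed (limma adjusted p = 0.0313), where 8.52% of all genes did, while Dbh was at -0.62 (adjusted p = 0.302) and Slc6a2 at -0.53 (adjusted p = 0.378), neither with an unadjusted p under 0.05. Without BN-Lx/Cub replicate 1 the difference of Maoa was 0.23 (limma adjusted p = 0.706).

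The normotensive strain WKY/NCrl was compared with the same SHR/OlaIpcv animals, so this contrast and the last one share them. By the study's methods, brains of the HXB/BXH strains and their progenitors were supplied by 1 institute in liquid nitrogen, whereas those of classic inbred strains from commercial breeders were kept in RNAlater, so that strain cannot be told apart from source and storage in this contrast. Of the 10 genes 0 passed 5% FDR in limma, where 0.825% of all genes did, and Dbh and Slc6a2 had an unadjusted p under 0.05, where 8.49% of all genes had. Dbh was at 5.08, 5.21 and 5.35 in WKY/NCrl, a difference of -0.72 ± 0.36 (SE, limma adjusted p = 0.569). Slc6a2 was at 4.96, 5.00 and 5.57, a difference of -0.95 ± 0.36 (SE, limma adjusted p = 0.296). The animals of WKY/NCrl differed widely among themselves for the serotonin transporter, at 5.50, 5.56 and 7.73. In SHR/OlaIpcv it was at 6.92 and 7.25, within that range. Dbh, Slc6a2 and Maoa did not overlap between the strains, and neither did 40.5% of all genes. Single libraries of the SHR/OlaIpcv animals reached the range of WKY/NCrl for Slc6a2 (5.49) and Maoa (11.2), but not for Dbh.

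The Fischer strain F344/NHsd and the Lewis strain LEW/SsNHsd share 1 batch by the batch label of the samples, whereas the titles put replicate 1 of each strain in another batch than replicates 2 and 3. limma called 0 of the 10 genes at 5% FDR, where 0.959% of all genes were called, and 0 had an unadjusted p under 0.05, where 6.06% of all genes had. The largest difference was that of Slc6a4, at 5.64, 7.54 and 7.56 in F344/NHsd and at 5.71, 5.93 and 6.74 in LEW/SsNHsd (0.79 ± 0.60 SE, limma adjusted p = 0.999994). The groups overlapped, because 1 animal of F344/NHsd was below all animals of LEW/SsNHsd. Without that animal (replicate 2) the difference was 1.42 ± 0.66 (SE, limma adjusted p = 0.826), with an unadjusted p under 0.05, whereas it was 0.47 without F344/NHsd replicate 1 and 0.46 without replicate 3, neither with an unadjusted p under 0.05. Dbh did not overlap, at 5.39, 5.40 and 5.66 against 5.05, 5.15 and 5.28, and neither did 14.7% of all genes.

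**Figure D5:**
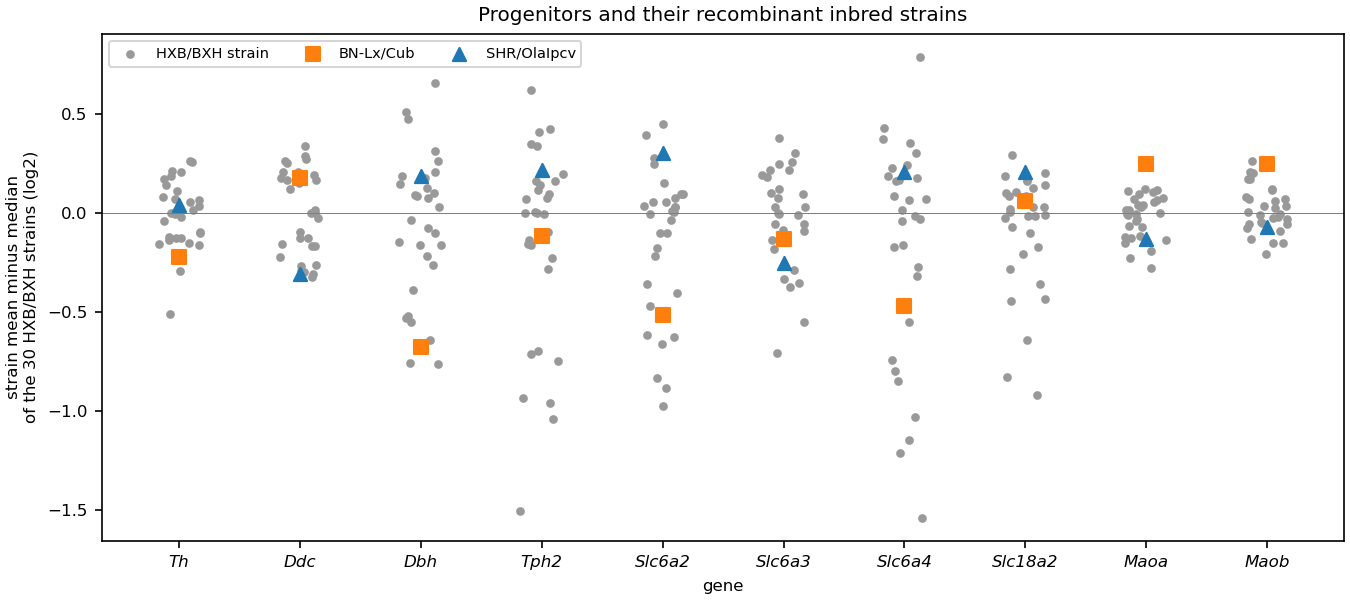
Strain mean minus the median of the 30 HXB/BXH strains (log2) for each gene, with grey points for the HXB/BXH strains, orange squares for BN-Lx/Cub and blue triangles for SHR/OlaIpcv. Grey points lie outside the interval between the progenitors for each gene, and most of those of Slc6a3, Slc18a2 and Tph2 do.

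The 30 HXB/BXH strains carry mixtures of the progenitor genomes. For Maoa 25 of the 30 strain means lay between those of the progenitors, 5 below both and 0 above both, and for Maob 23 lay between. Dbh and Slc6a2 had 21 and 22 between the progenitors. For Slc18a2 19 strains lay below both progenitors, at 8.59 in BN-Lx/Cub and 8.74 in SHR/OlaIpcv, and for Slc6a3 22 lay above both, at 7.40 and 7.28. For Ddc 19 lay between, 9 above both and 2 below both. For Th, Tph2 and Slc6a4 16, 13 and 15 strains lay between. The progenitors differed by less than the SD within strains for these 3 genes as well as for Slc18a2 and Slc6a3.

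Of 27 other genes of monoamine metabolism, transport and reception listed with the 10, 25 were in the table and 8 (32%) passed 5% FDR for strain in limma, where 36.8% of all genes passed. Of 6 genes for synthesis of the cofactor tetrahydrobiopterin 2 passed, of 8 further breakdown genes 3, of 4 further transporters 2, of 3 further synthesis genes 0 and of 4 dopamine receptors 1. The highest R2 was that of Slc18a1, the second vesicular monoamine transporter (0.639), whose means ran from 3.84 in WKY/NCrl to 4.68 in BXH3/Cub. The lowest R2 among those called was that of Pcbd1, a recycling enzyme of tetrahydrobiopterin (0.517), whose means ran from 7.31 to 8.10.

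For 3 genes the transcript table held more than 1 RefSeq transcript, of which one followed the gene more closely. For Ddc, transcript XM_008770253 had R2 = 0.637 and r = 0.98 with the gene, and transcript NM_001270853 had R2 = 0.452 and r = 0.52. For Slc18a2, XM_006231664 had R2 = 0.481 and r = 0.96, and NM_013031 had R2 = 0.347 and r = 0.40. For Th, NM_012740 had R2 = 0.409 and r = 0.92, and XM_039101327 had R2 = 0.380 and r = 0.47. The strain means of the transcript with the lower r ranged more widely for each of the 3 genes: from 3.20 to 5.06 against 7.41 to 8.79 for Ddc, from 2.33 to 6.66 against 6.63 to 8.89 for Slc18a2 and from 1.58 to 6.32 against 6.30 to 8.28 for Th. The lowest strain of the transcript with the higher r was SR/JrHsd for all 3 genes, as for the genes themselves. How reads were divided between transcripts was not examined.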

How the data were processed

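RNA sequencing of whole brain was taken from the deposited RefSeq gene table of processing version v7.1. Its deposited values were read as log2 from their range and median. For the older v5 tables the authors trimmed adaptors (Cutadapt), discarded ribosomal reads (Bowtie 2), aligned the others to rn6 genomes of each strain (HISAT2), estimated counts (RSEM), removed 1 factor of unwanted variation and applied the rlog transformation of DESeq2. How v6 and v7.1 were made is not given in the sources used here. Spike-in rows (73) were left out, and 5 single values over 30, none of them of the genes described, were kept. The deposited annotation, which holds coordinates and other names rather than measurements, gave gene positions and symbols.

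Strain, replicate number and batch came from the labels, and libraries of 1 animal were averaged. Nothing in the labels says how animals of a strain were housed or bred. The limma p-values judge differences against the spread between these animals within strains. The permutation p-values come from reordering the strains or, within strains, the animals. Strain effects and strain pairs were fitted with limma 3.58.1 (R 4.3.3) and adjusted over all 20859 genes by the method of Benjamini and Hochberg. Correlations were computed in Python 3.11.15 with 100000 permutations, over strains or within strains. Counts were not used here, so depth is unknown. On simulated data the strain test recovered 200 of 200 changed genes with 18 false calls among 20859 genes. The changed genes were given an SD between strains at least as large as that within strains. The power for smaller strain effects is therefore not known from it. Replicate numbers did not pair the animals. The named genes are all 10 genes, their 3 highest and 3 lowest strains, the 3 nearest genes of each with a symbol and a mean above the median, and the other pathway genes called with the highest and the lowest R2. Not every gene that this rule names is reported here. Genes, lists and tests were chosen with earlier results of these data known. Alternatives comprised batch as a covariate (2 readings), other normalization and filters, other table versions, single panels, leaving out doubted strains or animals with high liver markers (both chosen after seeing the data), and leaving out each replicate.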

Additional observations from a re-analysis of the deposited data

How the results depend on the processing

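Of the 10 genes 4 were called in the strain test, which had no term for batch. The count was 2 among the 4 genes that remained when only genes above the median were tested (34.9% of all those genes were called), 0 in the FXLE/LEXF strains alone (5.00% of all genes), and 1 to 4 when the animals of 1 replicate number were left out, the lowest without replicate 3, which removes 1 animal from most strains (29.3% of all genes were called then, and 15.7% and 14.9% without replicates 1 and 2). With batch as a covariate 6 were called, with Tph2 and Maoa added, where 54.2% of all genes were called by the batch label and 43.1% by the batch in the titles. The count was 5 in v5, with Th and Maob added and Slc18a2 lost (63.6% of all genes were called), and 5 without doubted strains, with Tph2 added (adjusted p = 0.0354, 38.3% of all genes). BN-Lx/Cub minus SHR/OlaIpcv had 1 call with batch in the fit (Maoa, where 31.0% of all genes were called), 1 in v5 (Ddc, 4.37%) and 0 to 1 without single animals. WKY/NCrl minus SHR/OlaIpcv had 3 calls in v5 (Dbh, Slc6a2 and Maob, where 24.6% of all genes were called) and 0 without single animals. F344/NHsd minus LEW/SsNHsd had 0 under each alternative. The v5 table held 22 pairs of genes past 5% over strain means instead of 34, in 45 strains. Over strain means r turned to 0.29 for Dbh and Maob with batch as a covariate and to -0.16 for Th and Slc6a2 and -0.20 for Th and Dbh in v5, and of the called pairs 0 others changed sign. The cause of these shifts was not tested. In each fit with batch as a covariate, SHR/OlaIpcv alone linked the batches of the HXB/BXH strains with those of the FXLE/LEXF strains. With a replicate block the counts were 4 genes called in the strain test, 34 and 36 pairs, and 0 genes in each strain pair. Deviations of animals with the same number had a mean r of 0.0130 and those with other numbers -0.00626, and 54 of 192 animals correlated best with their own number. Over all alternatives the within-strain r ran from 0.92 to 0.97 for Tph2 and Slc6a4, from 0.79 to 0.88 for Th and Slc6a3 and from 0.66 to 0.86 for Dbh and Slc6a2. Of the single values of genes and of 11 of the 45 pairs 443 kept their call, 15 gained and 25 lost it, and 2 turned direction.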
